A study of Mus musculus with 12 samples.

Results

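The genes described are 10 enzymes that write or erase methylation on lysine 9 of histone H3 (H3K9). They are the methyltransferase genes Ehmt1, Ehmt2, Setdb1, Suv39h1 and Suv39h2 and the demethylase genes Kdm1a, Kdm3a, Kdm3b, Kdm4b and Kdm4c. The members were taken by gene symbol from the deposited tables and linked by Ensembl ID to the count files, which gave 10 of 21728 genes listed in any library. All 10 were listed in all 12 libraries and passed the low-count filter of every comparison.

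The 4 groups held 3 mRNA libraries each. All came from mouse embryonic stem cells of strain C57BL/6 and genotype BVSC, which carries the reporters Blimp1-mVenus and Stella-ECFP. PGCLCs of the BPA arm and untreated PGCLCs are primordial germ cell-like cells of day 5, sorted as Blimp1+Stella+ from aggregates. BPA EpiLCs and untreated EpiLCs are epiblast-like cells, the stage from which PGCLCs are made, harvested at 48 h. Bisphenol A (BPA), a plastics monomer with weak oestrogenic activity, was given to EpiLCs at 100 nM for their last 24 h, and the labels do not say if the PGCLC medium held it too. Descriptions of the untreated EpiLC libraries name water as their control treatment. Nothing in the labels says that replicates came from separate cultures, and the p-values therefore reflect the spread among these libraries, which may be technical. The sample descriptions follow another naming scheme in each PGCLC group and in the EpiLCs, so a library batch and the group cannot be told apart.

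Methylation of H3K9 marks silent chromatin. Ehmt1 (GLP) and Ehmt2 (G9a) form a heterodimer that adds mono- and dimethylation in euchromatin, Setdb1 adds trimethylation at retrotransposons, and Suv39h1 and Suv39h2 trimethylate pericentromeric repeats. Kdm3a and Kdm3b remove mono- and dimethylation, Kdm4b and Kdm4c remove trimethylation, and Kdm1a (LSD1), best known as an eraser of H3K4 methylation, has also been reported to act on H3K9. In mouse primordial germ cells the dimethyl mark falls across the genome as the cells leave the epiblast state.

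The start-site sequences of 3 members whose levels the results turn on are shown, each the 250 bases upstream of a RefSeq start (GRCm38.p6, an mm10 patch release), read 5′ to 3′ on the gene's strand. Capitals mark the letters ACGTG or GCGTG on either strand, the core that hypoxia-inducible factors bind, since Kdm3a is a known hypoxia-responsive gene.
Ehmt2 (chr17:34898224-34898473, plus strand): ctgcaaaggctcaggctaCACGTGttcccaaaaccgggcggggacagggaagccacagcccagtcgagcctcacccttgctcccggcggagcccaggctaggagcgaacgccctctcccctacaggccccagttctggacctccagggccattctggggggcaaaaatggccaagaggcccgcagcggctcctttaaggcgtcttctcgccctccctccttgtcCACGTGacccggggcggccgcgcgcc
Kdm3a (chr6:71632918-71633167, minus strand): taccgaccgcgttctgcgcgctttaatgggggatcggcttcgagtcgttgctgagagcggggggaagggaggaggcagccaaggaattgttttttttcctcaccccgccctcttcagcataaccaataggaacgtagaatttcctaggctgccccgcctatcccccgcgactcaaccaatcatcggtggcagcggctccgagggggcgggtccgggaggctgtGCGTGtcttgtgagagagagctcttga
Suv39h1 (chrX:8074761-8075010, minus strand): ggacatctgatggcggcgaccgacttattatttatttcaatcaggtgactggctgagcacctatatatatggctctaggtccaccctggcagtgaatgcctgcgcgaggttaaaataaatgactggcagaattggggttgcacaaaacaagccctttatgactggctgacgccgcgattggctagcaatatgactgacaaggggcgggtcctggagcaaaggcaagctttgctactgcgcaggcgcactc
Both marked places of Ehmt2 read CACGTG, in which the core lies on both strands and overlaps itself. For Kdm3a the RefSeq start lies 73 bases inside the GENCODE gene, and the marked GCGTG falls in that stretch. The RefSeq table lists 3 promoters for Kdm3a, 2 each for Ehmt2, Suv39h1 and Kdm4c and 1 for each of the other members it holds, and the one nearest the GENCODE gene start was used, so other starts were not searched. Of the 8 members with a promoter in the table, 5 held the core in it, and 38.6% of all 32851 promoters of that length did. The letters GCCNNNGGC, bound by TFAP2 factors, and the palindromic oestrogen response element were in 0 of the 8, against 13.7% and 0.064% of all promoters, searched on both strands.

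Gene counts per library were 30375633 to 34309195 in PGCLCs and 11785338 to 22029195 in EpiLCs. Levels are CPM (counts scaled to the TMM-adjusted library total) on a single scale over the 12 libraries, fold changes are log2 differences ± SE, and adjusted p-values are from the edgeR quasi-likelihood test adjusted for every gene in the comparison by Benjamini-Hochberg, with 0.05 as the threshold (n = 3 libraries per group). The 6 germ cell markers had summed levels of 829 to 890.03 CPM in PGCLCs of the BPA arm, 925 to 1072 CPM in untreated PGCLCs and 60.9 to 73.5 CPM in EpiLCs, and all 6 were higher in untreated PGCLCs than in untreated EpiLCs. The 5 EpiLC markers summed to 362 to 449 CPM in PGCLCs and 1219.9 to 1502 CPM in EpiLCs. Among them Dnmt3a, Dnmt3b and Pou3f1 were lower in untreated PGCLCs, Otx2 was higher (2.75 ± 0.15), and Fgf5 (-0.46 ± 0.46) did not pass the test. The 7 endoderm markers (Afp, Ttr, Apoa1, Apob, Foxa2, Cubn, Amn) summed to 4773 to 9801 CPM in PGCLCs of the BPA arm, 678 to 1067 CPM in untreated PGCLCs and 4.11 to 5.14 CPM in EpiLCs, where 2 to 5 of the 7 were listed in a library. A library stood apart in each of 2 groups. Untreated EpiLC replicate 3 differed from replicates 1 and 2 by a chi-square per gene of 82.7 and 108, against 6.50 between those 2, and its sample description names another replicate than its title. Replicate 3 of the BPA-arm PGCLCs differed from replicates 1 and 2 by 46.1 and 45.1, against 3.76 between those 2. Pairs of untreated PGCLC libraries differed by 21.35, 20.15 and 18.01, so BPA-arm replicates 1 and 2 were closer to each other than any untreated pair.

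Exon length was taken as all annotated exons of a gene merged, and the order between genes depends on it. In CPM alone, Kdm3b (283) and Kdm1a (285) were close in untreated PGCLCs. Set against exon length, Kdm1a had the highest level of the 10 genes in all 4 groups. Its level was 59.4 ± 0.937 CPM per kilobase of exon in PGCLCs of the BPA arm, 54.97 ± 1.68 in untreated PGCLCs, 54.7 ± 1.396 in BPA EpiLCs and 56.8 ± 1.45 in untreated EpiLCs (mean ± SD, n = 3). Ehmt2 was next in PGCLCs, at 39.8 ± 0.259 CPM per kilobase in the BPA arm and 35.8 ± 1.39 in untreated cells, followed in both by Kdm3a, Setdb1, Kdm3b and Kdm4c. In these 6 places of the PGCLC order neighbouring genes did not overlap in any library. Ehmt1 and Kdm4b came after them and overlapped, and Suv39h1 and Suv39h2 were last. In the BPA arm Suv39h1 (12.99 ± 5.07 CPM per kilobase) overlapped Kdm4b above it and not Suv39h2 below it, and in untreated PGCLCs it was last at 6.64 ± 0.805 and overlapped Suv39h2.

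The EpiLC order differed in the place of both demethylase and methyltransferase genes. Suv39h1 had rank 6 in both EpiLC groups, against 9 in BPA-arm PGCLCs and 10 in untreated PGCLCs. Setdb1 followed Kdm1a in BPA EpiLCs at 23.9 ± 0.545 CPM per kilobase, with Ehmt2 (20.97 ± 0.859) and Kdm4c (20.6 ± 1.63) after it and overlapping each other. Kdm3a (9.83 ± 0.708) and Kdm3b (7.596 ± 0.14) were seventh and eighth, and Kdm4b (6.29 ± 0.0698) was last. In untreated EpiLCs every neighbouring pair from Ehmt2 in second place to Suv39h1 in sixth, and from Kdm3a in seventh to Kdm4b in last, overlapped. Untreated replicate 3 was the lowest library for Setdb1, Kdm4c, Ehmt1, Kdm3a, Kdm3b and Kdm4b.

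**Figure D1:**
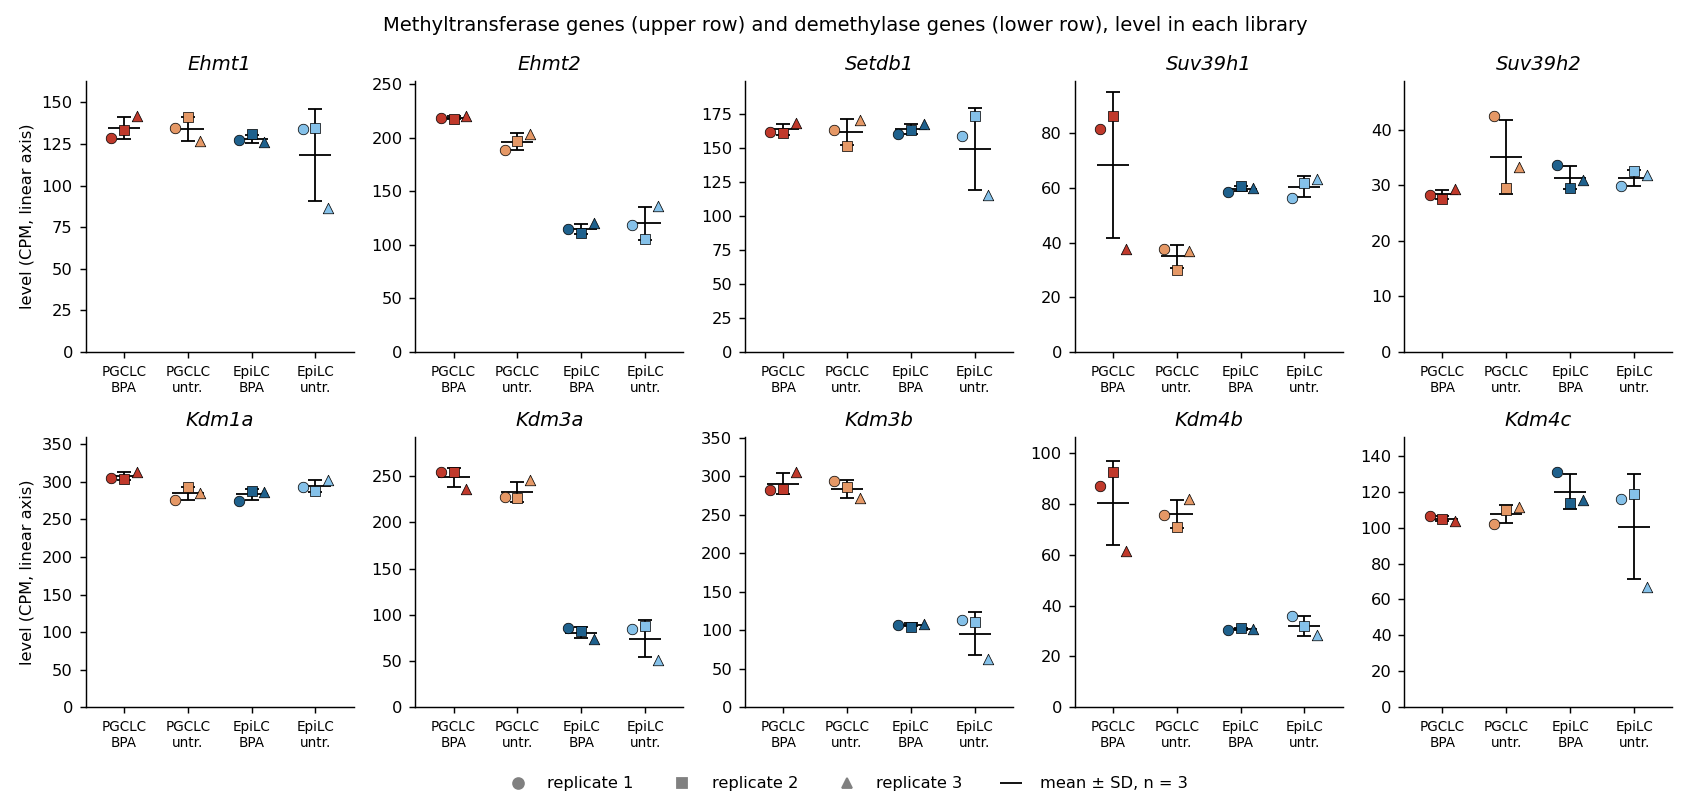
Level of each methyltransferase gene (upper row) and demethylase gene (lower row) in CPM on a linear axis from 0, with 1 point per library and the mean ± SD of 3 libraries per group. Ehmt2, Kdm3a, Kdm3b and Kdm4b have all 6 PGCLC points above all 6 EpiLC points, and Suv39h1 has 2 BPA-arm PGCLC points at 81.4 and 86.2 CPM above all other points.

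Between untreated PGCLCs and untreated EpiLCs, 5 of the 10 genes changed. Kdm3a, Kdm3b, Kdm4b and Ehmt2 were higher in PGCLCs and Suv39h1 was lower. Over all 17608 genes tested, 55.6% passed in either direction, 30.4% as higher and 25.2% as lower, so the share of members that passed is near the share of all genes. The groups did not overlap for these 5 members, and for 60.3% of all genes (32.1% as higher and 28.2% as lower). The median log2 difference was 1.24 over the 5 demethylase genes and 0.16 over the 5 methyltransferase genes, against 0.07 over all genes tested. Endoderm and germ cell markers moved with the same contrast, as given above, and their part in these results was not tested. In bulk libraries fewer cells of a type and less RNA per cell cannot be told apart.

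Ehmt2 encodes the G9a subunit of the dimethylating heterodimer (chromosome 17, 34898469 to 34914052, plus strand, mm10). It had 188, 197 and 204 CPM in untreated PGCLCs, against 118, 105 and 137 CPM in untreated EpiLCs. All 3 PGCLC libraries lay above the EpiLC libraries, and the difference of 0.71 ± 0.10 passed the test (adjusted p = 7.03e-05). Its partner Ehmt1 (chromosome 2, 24789928 to 24919614, minus strand) had 134, 141 and 127 CPM in untreated PGCLCs, against 134, 135 and 86.5 CPM in untreated EpiLCs. The groups overlapped, and the interval of the Ehmt1 difference was -0.13 to 0.49 (adjusted p = 0.309). The files list no gene under 10 counts. With such unlisted genes set to 9 reads in place of 0, Ehmt1 was called higher (0.41, adjusted p = 0.0296), but the median of all genes moved by 0.235 too. The difference between both subunits' changes was not tested.

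Setdb1, whose product trimethylates H3K9 at silenced retrotransposons (chromosome 3, 95323525 to 95357202, minus strand), had 163, 152 and 171 CPM in untreated PGCLCs, against 159, 173 and 116 CPM in untreated EpiLCs. The groups overlapped, and the interval of the difference was -0.16 to 0.39 (adjusted p = 0.461). Suv39h1 (chromosome X, 8061171 to 8074760, minus strand) had 37.8, 30.1 and 37.01 CPM in untreated PGCLCs, against 56.4, 61.8 and 63.4 CPM in untreated EpiLCs. All 3 PGCLC libraries lay below the EpiLC libraries, and Suv39h1 was lower by 0.79 ± 0.24 on the log2 scale (adjusted p = 0.0143). Without untreated PGCLC replicate 2, its lowest library, the log2 difference was -0.69 with adjusted p = 0.0584. The Suv39h1 call was also lost with unlisted genes counted as 9 reads (-0.55, adjusted p = 0.0611). Its paralog Suv39h2 (chromosome 2, 3455815 to 3475031, minus strand) had 42.5, 29.6 and 33.3 CPM in untreated PGCLCs and 29.8, 32.5 and 31.8 CPM in untreated EpiLCs, which overlapped (interval -0.12 to 0.45). With unlisted genes counted as 9 reads, Setdb1 (0.35, adjusted p = 0.0459) and Suv39h2 (0.40, adjusted p = 0.0319) were called higher, and the median of all genes moved by 0.235.

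The demethylases of mono- and dimethylation had the largest stage differences of the 10 genes. Kdm3a (chromosome 6, 71588972 to 71632990, minus strand) had 228, 226 and 246 CPM in untreated PGCLCs, against 84.6, 87.6 and 50.9 CPM in untreated EpiLCs. Kdm3b (chromosome 18, 34777047 to 34838660, plus strand) had 293, 286 and 271 CPM in untreated PGCLCs, against 113, 111 and 63.2 CPM in untreated EpiLCs. For both genes the lowest PGCLC library was above the highest EpiLC library by more than the range within either group. The differences were 1.65 ± 0.17 for Kdm3a (adjusted p = 6.49e-06) and 1.56 ± 0.17 for Kdm3b (adjusted p = 1.38e-05), which is 3.13-fold and 2.96-fold.

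The trimethyl erasers Kdm4b and Kdm4c gave different results. Kdm4b (chromosome 17, 56326062 to 56402870, plus strand) had 75.4, 70.8 and 81.9 CPM in untreated PGCLCs, against 36.04, 32.1 and 28.3 CPM in untreated EpiLCs, with no overlap and a difference of 1.24 ± 0.15 (adjusted p = 2.62e-05). Kdm4c (chromosome 4, 74242497 to 74405860, plus strand) had 102, 109.5 and 111 CPM in untreated PGCLCs, against 116, 119 and 66.8 CPM in untreated EpiLCs, which overlapped (interval -0.28 to 0.47, adjusted p = 0.66). Kdm1a (chromosome 4, 136550540 to 136602723, minus strand), highest of the 10 per kilobase, had 276, 293 and 285 CPM in untreated PGCLCs and 292, 288 and 303 CPM in untreated EpiLCs. These overlapped, and the interval of the Kdm1a difference, -0.20 to 0.11, was the narrowest of the 10.

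Untreated EpiLC replicate 3 was low for the long members. Relative to the mean of replicates 1 and 2, its log2 level was -0.82 for Kdm3b (14.1 kb of exons), -0.75 for Kdm3a (8.22 kb), -0.63 for Ehmt1 (8.12 kb) and -0.52 for Setdb1 (6.85 kb). It was 0.29 for Ehmt2 (5.49 kb) and 0.10 for Suv39h1 (5.27 kb), while Kdm4c, at 5.82 kb, was at -0.81 and Kdm4b, at 4.89 kb, at -0.26. Over all genes the median deviation of this library was 0.48 in the quartile of shortest exon length and -0.48 in the quartile of longest. Without it, Kdm3a (1.39), Kdm3b (1.29), Kdm4b (1.11) and Ehmt2 (0.77) were still called higher and Suv39h1 lower (-0.80), while the uncalled values of Ehmt1, Setdb1 and Kdm4c turned to -0.05, -0.09 and -0.17.

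**Figure D2:**
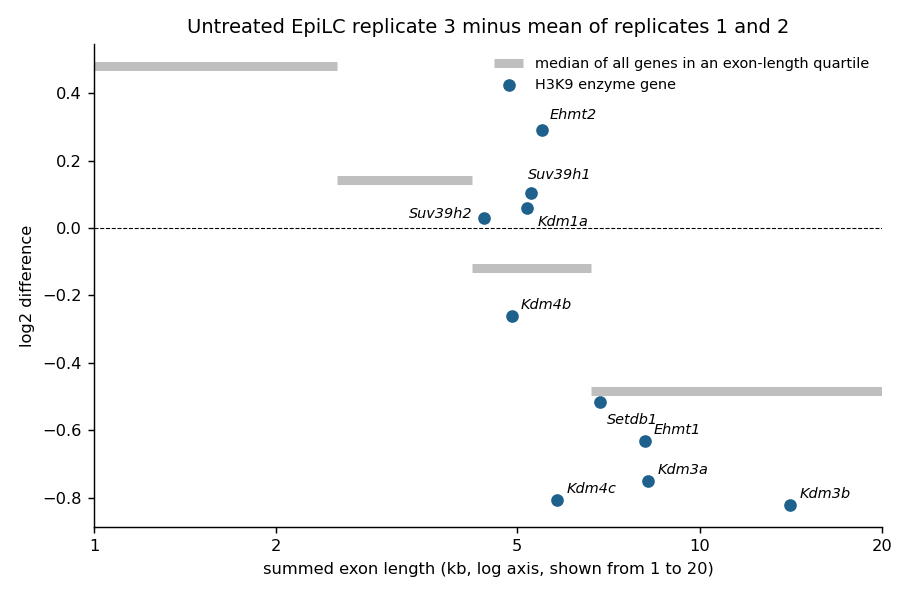
Log2 level of untreated EpiLC replicate 3 minus the mean of replicates 1 and 2 for the 10 genes (points) against summed exon length in kilobases on a log axis, with grey bars for the median of all genes in each exon-length quartile. The bars lie at 0.48 for the shortest and at -0.48 for the longest genes, and Kdm3b, Kdm4c and Kdm3a are the lowest points.

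In the BPA arm the same 4 genes were higher in PGCLCs than in EpiLCs and 0 of the 10 were lower, where 57.5% of all genes tested passed in either direction, 32.5% as higher and 25% as lower. This contrast shares no library with the untreated one, but both used the same 12-library estimate of spread. Kdm3a had 255, 254 and 237 CPM in BPA-arm PGCLCs, against 85.6, 82.7 and 74.3 CPM in BPA EpiLCs, a difference of 1.62 ± 0.17 (adjusted p = 6.26e-06). Kdm3b had 282, 284 and 306 CPM in BPA-arm PGCLCs, against 107, 105 and 109 CPM in BPA EpiLCs (1.44 ± 0.17, adjusted p = 2.23e-05). For both genes all PGCLC libraries were above all EpiLC libraries. Kdm4b had 86.8, 92.5 and 61.4 CPM in BPA-arm PGCLCs, against 30.4, 31.1 and 30.9 CPM in BPA EpiLCs (1.38 ± 0.15, adjusted p = 9.68e-06), and its replicate 3 was the lowest of the PGCLCs. Ehmt2 had 219, 217 and 219.9 CPM in BPA-arm PGCLCs, against 114, 111 and 120.2 CPM in BPA EpiLCs (0.92 ± 0.10, adjusted p = 7.43e-06).

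Suv39h1 was the member whose stage call differed between the arms. The difference of its stage changes between the arms is the same contrast as the interaction described below, which did not pass. Suv39h1 had 81.4, 86.2 and 37.7 CPM in BPA-arm PGCLCs, against 58.7, 60.7 and 59.97 CPM in BPA EpiLCs. PGCLC replicates 1 and 2 were above every EpiLC library and replicate 3 was below every EpiLC library, and the difference of 0.19 ± 0.24 did not pass (adjusted p = 0.502). Without replicate 3 it was 0.49 with adjusted p = 0.00439, and without replicate 2 it was -0.00572. The fit without replicate 3 leaves only the close pair of replicates 1 and 2 in the BPA-arm PGCLCs. Kdm1a (0.12 ± 0.07) had no overlap between the groups as higher and Kdm4c (-0.19 ± 0.17) and Suv39h2 (-0.15 ± 0.13) had none as lower, but they did not pass the test. Kdm1a was called with unlisted genes as 9 (0.40, adjusted p = 0.00207), where the median of all genes moved by 0.284, and Kdm4c in a fit of the 6 BPA libraries (adjusted p = 0.0333). Groups without overlap were found for 73.2% of all genes in this contrast, 40.5% as higher and 32.7% as lower, and for 7 of the 10 members. Ehmt1 (interval -0.24 to 0.38) and Setdb1 (interval -0.27 to 0.28) overlapped and did not pass.

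**Figure D3:**
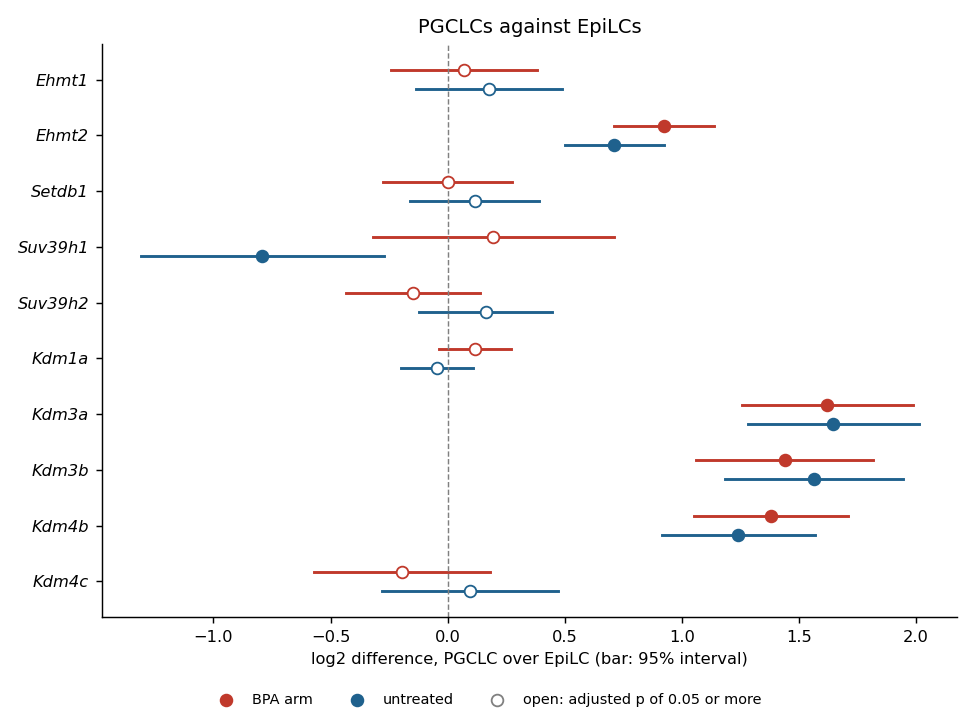
Log2 difference of each gene between PGCLCs and EpiLCs in the BPA arm (red) and in untreated cells (blue), with 95% intervals, filled where the adjusted p is under 0.05. Ehmt2, Kdm3a, Kdm3b and Kdm4b are filled and to the right of 0 in both arms, and Suv39h1 is filled, at -0.79, in untreated cells alone. The difference between the arms did not pass for Suv39h1.

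The PGCLC libraries addressed whether BPA given at the EpiLC stage was followed by changed transcript levels. In this contrast 0 of the 10 genes passed the test, where 13.9% of 16753 genes tested did (8.13% as higher and 5.72% as lower). The largest difference was that of Suv39h1, with 81.4, 86.2 and 37.7 CPM in BPA-arm PGCLCs, against 37.8, 30.1 and 37.01 CPM in untreated PGCLCs. Replicates 1 and 2 of the BPA arm were above every untreated library, and replicate 3 lay within the untreated range, whose highest library has 37.8 CPM. The Suv39h1 difference was 0.98 ± 0.28 (interval 0.33 to 1.64) and missed the threshold (adjusted p = 0.0567 by edgeR). DESeq2 called it (0.98, adjusted p = 0.00382), as did a fit of all 12 libraries (0.97, adjusted p = 0.0274), and leaving out replicate 3 gave 1.28 with adjusted p = 0.000594. In that last fit the BPA arm was replicates 1 and 2 alone, which differed by a chi-square per gene of 3.76, against 18.01 to 21.35 for untreated PGCLC pairs. Its spread within the BPA arm is therefore that of a close pair. Leaving out any other PGCLC library gave adjusted p between 0.133 and 0.198.

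The Suv39h1 values and the endoderm marker sum were both highest in replicates 1 and 2 of the BPA arm. The 7 markers summed to 9295, 9801 and 4773 CPM in BPA-arm PGCLCs and to 1067, 748 and 678 CPM in untreated PGCLCs, with all 7 listed in each of the 6 libraries. Fgf5 was also highest in these 2 libraries, with 12.5, 13.8 and 2.63 CPM against 6.79, 4.11 and 4.43 CPM. Of the other EpiLC markers, Dnmt3b was highest in them too, and Otx2, Dnmt3a and Pou3f1 were not. Otx2 had 80.1, 80.2 and 60.4 CPM, against 68.8, 78.4 and 84.7 CPM. The mesoderm marker Mixl1 was highest in them, with 14.7, 15.2 and 0.594 CPM, and 0.637 CPM in the 1 untreated library that listed it. Kdr, also a mesoderm marker, was lowest in them, with 8.25, 7.91 and 15.7 CPM, against 19.8, 20.1 and 22.3 CPM. The summed mesoderm markers, mostly Hand1, were not highest in them (107.5, 97.8 and 109.2 CPM, against 120.9, 124.8 and 95.8 CPM). Replicate 3 of the BPA arm had an endoderm sum above every untreated library and a Suv39h1 level within the untreated range. Apob (2205 CPM) and Afp (1365 CPM) made up much of its sum, and the markers did not all follow it. Cubn alone was below every untreated library in that replicate, at 462.9 CPM against 463.65 CPM in the lowest. Amn was close to the untreated range, at 34.3 CPM against 32.2 CPM in the highest untreated library. The germ cell marker sum was below every untreated library in all 3 BPA-arm libraries, as given above, and 3 of its 6 genes were lower, Prdm1 (-0.32 ± 0.08, adjusted p = 0.0334), Prdm14 (-0.63 ± 0.09, adjusted p = 0.00545) and Tfap2c (-0.41 ± 0.08, adjusted p = 0.0184). The part of any of these markers in the Suv39h1 result was not tested. An antisense gene, Gm14820, covers 14.6% of the exon length of Suv39h1 and had 2.24, 1.56 and 3.902 CPM in BPA-arm PGCLCs and 3.22, 2.74 and 2.20 CPM in untreated PGCLCs. The sources used here do not give the strand setting of the counts, so reads of this stretch may have been assigned to either gene or left out as ambiguous. Gm14820 was listed in no EpiLC library, and the same limit applies to the Suv39h1 difference between the stages. It also applies to Kdm3b, where Gm26538 on the opposite strand covers 24.6% of the exon length, and to Suv39h2, where Dclre1c covers 8.1%.

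**Figure D4:**
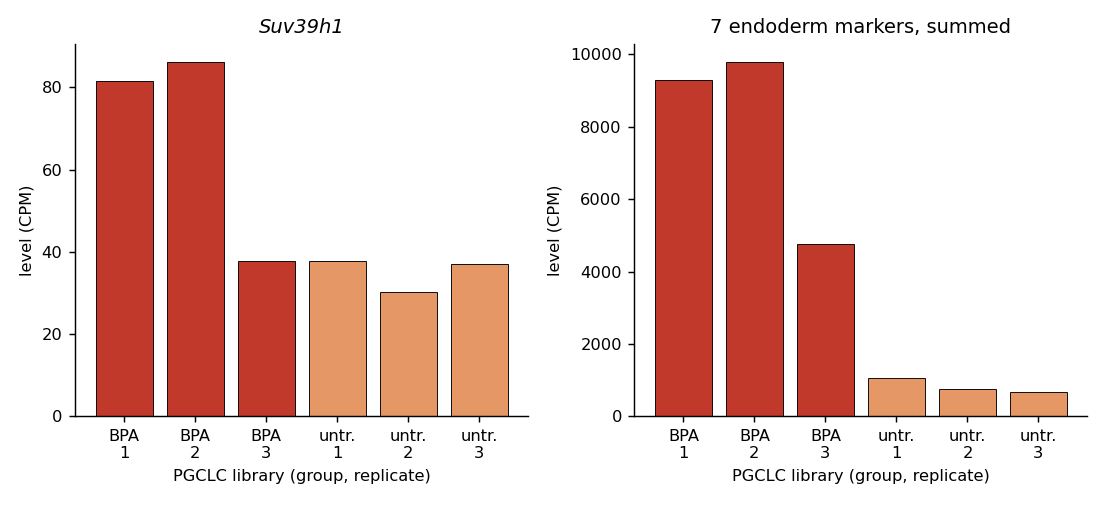
Suv39h1 level (left) and summed level of 7 endoderm markers (right) in CPM in each of the 6 PGCLC libraries, BPA arm in red and untreated in orange, 1 bar per library. BPA-arm replicates 1 and 2 are highest in both panels, and BPA-arm replicate 3 is within the untreated range for Suv39h1 (37.7 CPM) and above it for the marker sum (4773 CPM).

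Among the other members, Ehmt2 had 219, 217 and 219.9 CPM in BPA-arm PGCLCs, against 188, 197 and 204 CPM in untreated PGCLCs. The groups did not overlap and the difference was 0.17 ± 0.05, which did not pass in edgeR (adjusted p = 0.0794) and passed in DESeq2 (adjusted p = 0.0221). Kdm1a had 305, 304 and 313 CPM in BPA-arm PGCLCs, against 276, 293 and 285 CPM in untreated PGCLCs, also without overlap (0.12 ± 0.05, adjusted p = 0.146). Suv39h2 had 28.2, 27.6 and 29.3 CPM in BPA-arm PGCLCs, against 42.5, 29.6 and 33.3 CPM in untreated PGCLCs. Its BPA-arm libraries were all below the untreated ones, the nearest pair at 29.3 and 29.6 CPM, and the difference of -0.30 ± 0.14 did not pass (adjusted p = 0.217). Groups without overlap were found for 35.2% of all genes (17.9% as higher and 17.3% as lower) and for these 3 of the 10 members.

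The remaining 6 members overlapped between the arms in PGCLCs. Ehmt1, Setdb1, Kdm3a, Kdm3b and Kdm4c had log2 differences of 0.02, 0.03, 0.10, 0.05 and -0.02, with intervals between -0.18 and 0.25 in all 5, so a 2-fold change lies outside each interval. Kdm4b (0.09 ± 0.15, interval -0.26 to 0.44) varied more within the BPA arm, where replicate 3 had 61.4 CPM and replicates 1 and 2 had 86.8 and 92.5 CPM. For Kdm4b, as for Suv39h1, BPA-arm replicate 3 was the lowest of its group.

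In EpiLCs, exposed directly, 0 of the 10 genes and 0 of 15252 genes tested passed in edgeR (0% of all genes), with 118 genes at an unadjusted p under 0.05 and 1 gene called by DESeq2. All 10 members overlapped between BPA and untreated EpiLCs, where 6.03% of all genes did not (2.5% as higher and 3.53% as lower), and their log2 differences lay between -0.05 and 0.27 with adjusted p of at least 0.943. Suv39h1 had 58.7, 60.7 and 59.97 CPM in BPA EpiLCs and 56.4, 61.8 and 63.4 CPM in untreated EpiLCs, with an interval of -0.24 to 0.24. Setdb1 had 161, 163 and 168 CPM in BPA EpiLCs and 159, 173 and 116 CPM in untreated EpiLCs, where replicate 3 alone was low. The positive values of Ehmt1, Setdb1, Kdm3a and Kdm3b, 0.13, 0.15, 0.13 and 0.17, were -0.07, -0.02, -0.095 and -0.07 without that library. Kdm4c, the largest of the 10 at 0.27, was 0.03 without it.

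Whether the BPA difference itself differed between the stages was tested as an interaction over the 12 libraries, PGCLC difference minus EpiLC difference, in which 0 of the 10 members and 1.32% of all genes passed (1.01% as higher and 0.312% as lower). Suv39h1 had the largest value of the 10 at 0.99 ± 0.34 (interval 0.25 to 1.72, adjusted p = 0.197). Without BPA-arm PGCLC replicate 3 it was 1.28 with adjusted p = 0.00115, a fit that leaves only the close pair of replicates 1 and 2 in that group. The other 9 lay between -0.31 (Suv39h2) and 0.21 (Ehmt2), with adjusted p of at least 0.515.

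**Figure D5:**
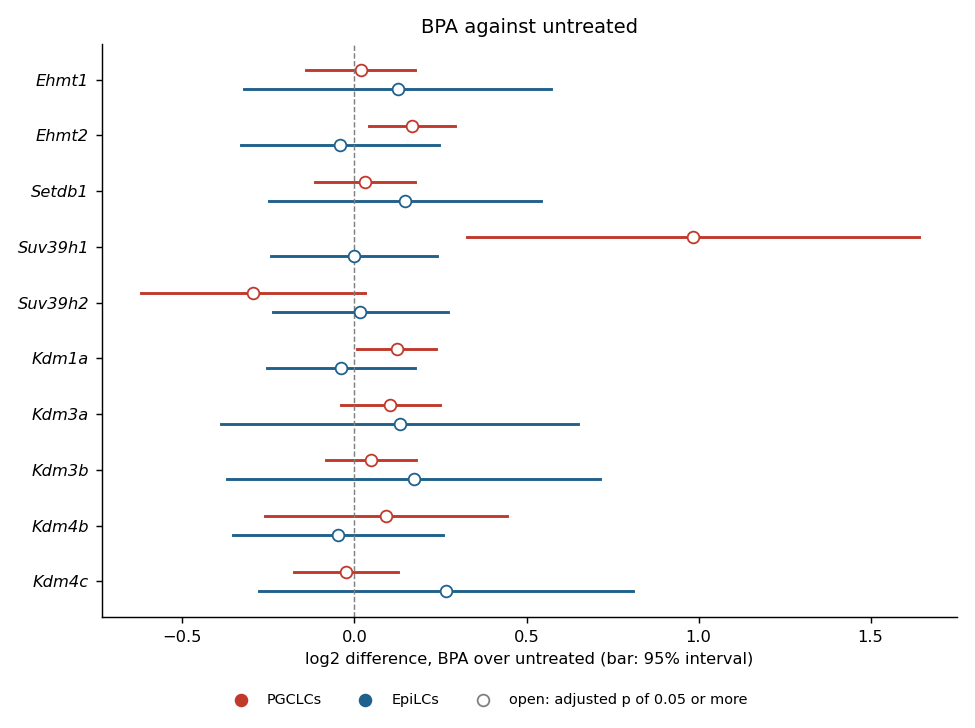
Log2 difference of each gene between BPA and untreated cells in PGCLCs (red) and EpiLCs (blue), with 95% intervals, open where the adjusted p is 0.05 or more. All points are open, and Suv39h1 in PGCLCs, at 0.98, is the farthest from 0.

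Of the 4 other H3K9 methyltransferase genes of the pathway list, Prdm16 and Mecom were higher in untreated PGCLCs than in untreated EpiLCs, where 30.4% of all genes were. Prdm16, which monomethylates H3K9 in the cytoplasm, had 30.2, 21.9 and 23.6 CPM in untreated PGCLCs and 4.62, 3.66 and 4.53 CPM in untreated EpiLCs (2.57 ± 0.16, adjusted p = 1.39e-07). Mecom, its relative, had 11.3, 15.3 and 11.7 CPM in untreated PGCLCs and 1.93, 2.74 and 2.09 CPM in untreated EpiLCs (2.50 ± 0.37, adjusted p = 0.000139). The groups did not overlap for either gene. Setdb2 (0.31 ± 0.14) and Prdm2 (0.58 ± 0.27) did not pass, but were called with unlisted genes as 9 (adjusted p = 0.00936 and 0.0158). In that setting the median of all genes moved by 0.235.

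Of 7 other demethylase genes, 6 were tested and 3 were higher in untreated PGCLCs than in untreated EpiLCs, where 30.4% of all genes were. Hr, a dimethyl eraser known from hair follicles, had 8.51, 11.01 and 14.1 CPM in untreated PGCLCs and 0.986, 1.97 and 1.32 CPM in untreated EpiLCs (2.97 ± 0.28, adjusted p = 3.67e-06). Kdm7a was higher by 1.08 ± 0.33 (adjusted p = 0.0161) and Phf8, which removes mono- and dimethylation, by 0.61 ± 0.24 (adjusted p = 0.0487). The Phf8 call was lost with any untreated PGCLC library left out, with log2 differences of 0.57 to 0.64. It was also lost with RLE factors (adjusted p = 0.0649), library size alone (0.0744), DESeq2 (0.0526) and a fit of the 6 untreated libraries (0.181), where the Kdm7a call was lost too (0.0701). Without untreated EpiLC replicate 3 the differences were 0.67 for Kdm7a and 0.25 for Phf8, both still called. Kdm4a (0.08 ± 0.12), Phf2 (0.08 ± 0.18) and Jmjd1c (-0.05 ± 0.27) did not pass, and Kdm4d was listed in untreated EpiLC replicate 1 alone, at 0.448 CPM. In the BPA arm Phf8 had means of 44.1 CPM in PGCLCs and 44.9 CPM in EpiLCs. With a library left out there, its adjusted p was at least 0.904. Kdm7a was then at 0.61 to 0.91 (adjusted p of 0.0679 to 0.198), but a fit of the 6 BPA libraries called it (0.00565). Hr passed with each library left out (adjusted p up to 0.000193), and Phf2 had 0.0374 to 0.0678.

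Under BPA in PGCLCs, Phf2 was higher and Phf8 lower, both members of the PHD-finger family of demethylases. Of all genes, 8.13% were higher and 5.72% lower. Kdm7a (-0.18 to 0.03 with a library left out), Kdm4a, Jmjd1c, Hr, Setdb2, Mecom and Prdm16 did not pass. Phf2, an eraser of H3K9 dimethylation, had 42.8, 43.5 and 42.5 CPM in BPA-arm PGCLCs, against 24.7, 27.96 and 24.4 CPM in untreated PGCLCs. The groups were apart by more than the range within either, and the difference of 0.75 ± 0.10 passed (adjusted p = 0.0037) and was called with each library left out in turn. Phf8 had 44.1, 44.1 and 44.1 CPM in BPA-arm PGCLCs, against 59.4, 58.1 and 63.6 CPM in untreated PGCLCs (-0.44 ± 0.08, adjusted p = 0.0122). The Phf8 call was lost without BPA-arm replicate 1 or 2 (adjusted p = 0.0747 and 0.0719) and in the 12-library fit (adjusted p = 0.285). Prdm2, a methyltransferase gene of the PR-domain family, had 130.3, 127 and 127 CPM in BPA-arm PGCLCs, against 109, 111 and 102 CPM in untreated PGCLCs (0.27 ± 0.06, adjusted p = 0.0283), with adjusted p up to 0.145 when a library was left out, 0.664 in the 12-library fit and 0.0698 with the block. In the interaction, the values of Phf2 (0.50 ± 0.26, adjusted p = 0.427), Phf8 (-0.63 ± 0.34, adjusted p = 0.448) and Prdm2 (-0.01 ± 0.38) did not pass.

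Partner genes of the methyltransferases were called in both directions between the stages. Of 9, 5 were higher and 2 lower in untreated PGCLCs, where 55.6% of all genes passed, 30.4% as higher and 25.2% as lower. Cdyl, a chromodomain corepressor that binds G9a, was higher by 0.97 ± 0.13 (adjusted p = 4.90e-05), and Atf7ip, the cofactor of Setdb1, by 1.14 ± 0.21 (adjusted p = 0.000576). Morc2a, an ATPase of the HUSH silencing pathway, was lower by 0.60 ± 0.11 on the log2 scale (adjusted p = 0.000768). Trim28, which brings Setdb1 to retrotransposons, had 1323, 1251 and 1331 CPM in untreated PGCLCs and 1382, 1302 and 1783 CPM in untreated EpiLCs (-0.19 ± 0.11, not passed). Of 8 genes of the Kdm1a complex, 6 were higher and 1, Hdac1, was lower (-0.49 ± 0.08, adjusted p = 0.000176), beside the same shares of all genes. Phf21a, the subunit that binds unmethylated H3K4, was higher by 0.94 ± 0.13 (adjusted p = 7.88e-05), and the deacetylase gene Hdac2 by 0.43 ± 0.10 (adjusted p = 0.00304). With a library left out, adjusted p reached 0.0649 for Wiz and 0.0721 for Fam208a among the partners, and 0.068 for Hmg20b and 0.0554 for Zmym2 in the complex. Without untreated EpiLC replicate 3 the log2 differences fell short of those with it, at 0.25 for Wiz, 0.21 for Mphosph8, 0.60 for Fam208a and 0.41 for Zmym2, against 0.40 ± 0.12, 0.36 ± 0.10, 1.01 ± 0.34 and 0.74 ± 0.24 with all libraries. In a fit of the 6 untreated libraries the calls of Wiz, Mphosph8, Fam208a, Hmg20b and Zmym2 were lost (adjusted p of 0.0644 to 0.0964), and with unlisted genes as 9 that of Pphln1 (0.0913).

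Of 4 genes for readers of H3K9 methylation, Uhrf1, Cbx1 and Cbx3 were lower in untreated PGCLCs than in untreated EpiLCs, and all 4, with Cbx5, were lower in PGCLCs of the BPA arm. Of all genes, 25.2% were lower in the untreated contrast and 25% in the BPA arm. The Cbx5 call was lost with unlisted genes as 9 (adjusted p = 0.0996), where the median of all genes moved by 0.284. Uhrf1, which couples H3K9 methylation to DNA methylation, had 271, 302 and 256 CPM in untreated PGCLCs, against 528, 514 and 436 CPM in untreated EpiLCs (-0.83 ± 0.12, adjusted p = 0.000102). Cbx3 (HP1γ) had 126, 122 and 119.99 CPM in untreated PGCLCs, against 186, 212 and 167 CPM in untreated EpiLCs (-0.62 ± 0.10, adjusted p = 0.000339). Cbx1 (HP1β) was lower by 0.50 ± 0.09 on the log2 scale (adjusted p = 0.000524). For all 3 genes the untreated groups did not overlap.

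Cbx3 and Cbx1 were also lower in BPA-arm PGCLCs than in untreated PGCLCs. Cbx3 had 90.8, 82.3 and 98.5 CPM in the BPA arm, against 126, 122 and 119.99 CPM in untreated PGCLCs (-0.42 ± 0.08, adjusted p = 0.0129). Cbx1 had 165, 167 and 195 CPM in the BPA arm, against 229, 230.5 and 226 CPM in untreated PGCLCs (-0.37 ± 0.07, adjusted p = 0.0156). The groups did not overlap, and the calls were lost with any library other than BPA-arm replicate 3 left out (adjusted p up to 0.0653 for Cbx3 and 0.0827 for Cbx1). Hmg20b, a subunit of the Kdm1a complex, was higher by 0.57 ± 0.13 (adjusted p = 0.0282), and Mphosph8, a HUSH subunit that reads H3K9 trimethylation, was lower by 0.27 ± 0.07 on the log2 scale (adjusted p = 0.0335). Both calls were lost in the 12-library fit (adjusted p = 0.131 for Hmg20b and 0.105 for Mphosph8) and with a library left out (adjusted p up to 0.124 and 0.158), and that of Mphosph8 also with the replicate number as a block (0.0775). Of the 31 other genes of the pathway tested, 3 were higher and 4 lower in this contrast, beside the 13.9% of all genes given above. Endoderm and germ cell markers moved with these genes too, and their part was not tested. In EpiLCs, 0 of the 31 passed.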

How the data were processed

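The 12 messenger RNA libraries were grouped by their labels into 4 groups of 3. Libraries were strand-specific, per the labels' protocols, and STAR, HTSeq, FastQC, bcl2fastq 2.19.1.403 and the build mm10 are named in the submitters' processing notes. The deposited files hold raw counts per Ensembl gene, in which the authors list no gene under 10 counts, and each library has 4.42% to 10.7% of reads without a feature and 4.56% to 6.07% ambiguous, left out here. The authors' deposited CPM tables, 1 per stage, are these counts, each library scaled by its own constant.

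Unlisted genes were taken as 0 (at most 9 counts, 0.254 to 0.740 CPM). Low counts were removed with filterByExpr, TMM factors were computed, and genes were tested by quasi-likelihood in edgeR 4.0.16 (R 4.3.3). BPA was tested within a stage (6 libraries), stages and the interaction in 1 fit of 12 libraries with 4 group means. Each SE was taken as the size of the log2 change over the root of F. Symbols, coordinates and exon lengths are from GENCODE M21. Named were the 10 members, the other H3K9 enzymes and up to 3 called genes per list with the smallest p. Trim28, Mael, Taf7l, Ddx4, Sycp3, Pou3f1, Fgf5, Kdr, Wiz, Fam208a, Zmym2, Pphln1, Cbx5 and Hormad1 were chosen after their values were seen. The members and lists were chosen with earlier results of these data known. The fits were tested on simulated data. Alternatives were DESeq2 1.42.0, limma-trend (limma 3.58.1) on deposited CPM plus 1 or 0.5, other sets of libraries, unlisted genes as 9, library size alone or RLE factors as scaling, a minimum of 1 CPM in 3 libraries or no filter, replicate number as a block and each library left out. The main fits did not pair the libraries by number. Counts limit the precision of low genes, and intervals cover the spread between these libraries.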

Additional observations from a re-analysis of the deposited data

How the results depend on the processing

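Of the alternative values of single genes with all libraries kept, 1230 had the same direction and side of the threshold, 24 came to pass, 29 no longer passed and 19 changed sign. The 4 stage calls of Kdm3a, Kdm3b, Kdm4b and Ehmt2 held in both arms under every alternative run, leave-one-out included. The count of members called under BPA in PGCLCs, 0 in edgeR, was 1 (Suv39h1) with library size alone, no filter, the 1 CPM filter, unlisted genes as 9, the 12-library fit and limma-trend on CPM plus 1 or 0.5, and 2 (with Ehmt2) in DESeq2. The cause was not tested. Suv39h1 stayed short of the threshold with RLE factors (adjusted p = 0.0553). In EpiLCs DESeq2 called 1 gene. The interaction called 232 genes, 519 with unlisted genes as 9, 779 in DESeq2 and 150 with the replicate number as a block. With that block Suv39h1 under BPA in PGCLCs was 0.90 (adjusted p = 0.0820). Same-numbered libraries correlated by -0.088 to 0.289 in their deviations from group means. Between BPA and untreated EpiLCs the values were 0.099, 0.157 and 0.289, and the same number matched best for replicates 2 and 3. These correlations cannot decide whether the numbers pair the libraries. The block lost no stage call among the members. With a library left out, genes called ranged over 8687 to 9593 (untreated stage contrast), 8565 to 9380 (BPA-arm stage contrast), 0 to 0 (BPA in EpiLCs), 668 to 3206 (BPA in PGCLCs) and 83 to 767 (interaction), and members called over 4 to 5, 4 to 5, 0 to 0, 0 to 1 and 0 to 1. Under BPA in PGCLCs, 2321 genes passed with all libraries, 677, 668 and 3206 without BPA-arm replicates 1, 2 and 3, and 1243, 1110 and 891 without untreated replicates 1, 2 and 3. Without BPA-arm replicate 3 that arm was the close pair of replicates 1 and 2 alone. The interaction count was 767 without untreated EpiLC replicate 3, 744 without BPA-arm PGCLC replicate 3, and 119 without untreated EpiLC replicate 1. It was 83, 113 and 117 without BPA EpiLC replicates 1, 2 and 3, and 120 and 117 without BPA-arm PGCLC replicates 1 and 2. Counting unlisted genes as 9 moved the median of all genes by 0.235 (untreated) and 0.284 (BPA arm) between the stages. Values that changed sign were, in the untreated stage contrast Kdm1a 0.188 (unlisted as 9), Jmjd1c 0.182 (unlisted as 9), Jmjd1c 0.00349 (replicate block), and in the BPA-arm stage contrast Setdb1 -0.0631 (RLE size factors), Setdb1 -0.0207 (library size alone), Setdb1 -0.00523 (1 CPM filter), Suv39h2 0.137 (unlisted as 9), Kdm4c 0.0911 (unlisted as 9), Kdm4a 0.22 (unlisted as 9), Phf8 0.26 (unlisted as 9), Setdb1 -0.0632 (DESeq2), Setdb1 -0.000205 (6-library fit), and in BPA in EpiLCs Suv39h1 0.0162 (library size alone), Suv39h1 0.000689 (limma-trend CPM + 1), Suv39h1 0.000704 (limma-trend CPM + 0.5), and in BPA in PGCLCs Kdm4a -0.00827 (unlisted as 9), Kdm4a -0.00335 (12-library fit), and in the interaction Kdm3a 0.0289 (unlisted as 9), Prdm2 0.0465 (unlisted as 9). Leaving out a library turned the sign in the untreated stage contrast, over ranges of -0.426 to 0.212 (Jmjd1c), -0.0518 to 0.279 (Ehmt1), -0.0854 to 0.236 (Setdb1), -0.173 to 0.233 (Kdm4c), -0.109 to 0.162 (Kdm4a), -0.197 to 0.221 (Phf2). Leaving out a library turned the sign in the BPA-arm stage contrast, over ranges of -0.0304 to 0.018 (Setdb1), -0.00572 to 0.487 (Suv39h1). Leaving out a library turned the sign in BPA in EpiLCs, over ranges of -0.0337 to 0.0582 (Suv39h2), -0.149 to 0.0529 (Kdm4b), -0.0414 to 0.0192 (Suv39h1), -0.0724 to 0.234 (Ehmt1), -0.123 to 0.0412 (Ehmt2), -0.0218 to 0.272 (Setdb1), -0.0951 to 0.267 (Kdm3a), -0.0675 to 0.32 (Kdm3b), -0.0597 to 0.101 (Setdb2), -0.0717 to 0.52 (Prdm2), -0.00243 to 0.247 (Kdm4a), -0.182 to 0.47 (Kdm7a), -0.129 to 0.382 (Phf8). Leaving out a library turned the sign in BPA in PGCLCs, over ranges of -0.0677 to 0.0394 (Kdm4a), -0.0243 to 0.0581 (Setdb1), -0.615 to 0.14 (Mecom), -0.036 to 0.202 (Prdm16), -0.0328 to 0.0481 (Ehmt1), -0.21 to 0.0222 (Setdb2), -0.0271 to 0.257 (Kdm4b), -0.179 to 0.0275 (Kdm7a). Leaving out a library turned the sign in the interaction, over ranges of -0.207 to 0.11 (Ehmt1), -0.235 to 0.0715 (Setdb1), -0.159 to 0.219 (Kdm3a), -0.263 to 0.134 (Kdm3b), -0.242 to 0.0172 (Setdb2), -0.245 to 0.364 (Prdm2), -0.228 to 0.0301 (Kdm4a), -0.517 to 0.108 (Jmjd1c), -0.548 to 0.116 (Kdm7a), -0.34 to 0.443 (Mecom). Depth limits genes near 10 counts, such as Kdm4d.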

Other observations

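Germline genes that are kept silent in mouse embryonic stem cells with H3K9 methylation were called in both directions between the stages. Of 10, 5 were higher and 2 lower in untreated PGCLCs than in untreated EpiLCs, and 5 were higher and 3 lower in the BPA arm. Of all genes, 30.4% were higher and 25.2% lower in untreated cells, and 32.5% and 25% in the BPA arm. Of the 5 higher in the BPA arm, Hormad1 was lost with RLE factors (adjusted p = 0.0632), DESeq2 (0.0746), the replicate block (0.0677), a fit of the 6 BPA libraries (0.0573) and a library left out (up to 0.177, without BPA EpiLC replicate 3, at a log2 difference of 0.37, against 0.55 with all). Smc1b, a meiotic cohesin gene, had 39.9, 42.4 and 50.5 CPM in untreated PGCLCs, against 5.87, 5.12 and 4.11 CPM in untreated EpiLCs (3.12 ± 0.17, edgeR adjusted p = 3.30e-08). Dazl, an RNA-binding protein gene of germ cells, had 58.7, 37.01 and 47.8 CPM in untreated PGCLCs, against 5.56, 7.32 and 5.15 CPM in untreated EpiLCs (2.98 ± 0.19, adjusted p = 1.23e-07). The groups were apart for both genes. Tuba3a was higher by 2.75 ± 0.21 (adjusted p = 6.60e-07). Mael, a gene of the piRNA pathway, had 4.43, 5.47 and 4.78 CPM in untreated PGCLCs, against 19.8, 19.1 and 23.5 CPM in untreated EpiLCs (-2.08 ± 0.18, adjusted p = 1.64e-06), and Taf7l was lower by 1.30 ± 0.30 on the log2 scale. Ddx4 (-0.36 ± 0.17) and Sycp3 (-0.30 ± 0.36) did not pass.

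Under BPA in PGCLCs 1 of the 10 passed, as did 13.9% of all genes. Stag3, a meiotic cohesin gene, had 79.6, 82.1 and 78.01 CPM in BPA-arm PGCLCs, against 39.9, 56.3 and 54.9 CPM in untreated PGCLCs (0.68 ± 0.13, edgeR adjusted p = 0.0159). The groups did not overlap, and adjusted p rose to at most 0.0702 with a library left out. Taf7l had 5.52, 5.69 and 1.98 CPM in BPA-arm PGCLCs, against 8.86, 12.5 and 9.01 CPM in untreated PGCLCs, and did not pass (adjusted p = 0.0772).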
